A study of Mus musculus with 2 samples.

Results

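Hypoxic tumour epithelial cells were defined here by the transcripts of 6 genes that low oxygen induces. Cell barcodes of 2 mouse liver tumour libraries were kept with at least 5000 unique molecular identifiers (UMIs, counted transcript molecules), at most 20% mitochondrial UMIs, at least 5 UMIs of the keratin genes Krt8 and Krt18 together, and no UMI of the leukocyte gene Ptprc. For each kept cell the share of its UMIs from Bnip3, Ndrg1, Egln3, Ankrd37, Pdk1 and Vegfa was summed to a hypoxia score. The 10% of cells with the highest score, pooled over both libraries, were taken as the hypoxic cells. They numbered 1022 of 10222 kept epithelial cells and of 17473 barcodes in all. The 5111 cells with the lowest 50% of scores were the comparison.

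The series profiled tumours of mice by droplet single-cell RNA sequencing. One library is titled shCtrl and carries the genotype label WT, and the other is titled shSrsf10 and labelled shSrsf10, named for a short hairpin RNA against Srsf10, a splicing factor. The labels give neither strain, age, promoter nor how many mice each library holds, and do not say which cells carried the hairpin. With 1 library per group no test between groups was possible, and every interval below covers counting error only. The shCtrl library gave 704 hypoxic and 3036 low-score cells, and the shSrsf10 library 318 and 2075.

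Cells sense oxygen through prolyl hydroxylases (the Egln proteins), which mark the hypoxia-inducible factors (HIFs) for destruction by the Vhl ubiquitin ligase while oxygen is present. When oxygen falls, HIF subunits accumulate, bind a short DNA motif with the core ACGTG or GCGTG, and induce genes for glucose uptake, glycolysis, mitochondrial turnover and vessel growth. Liver tumours are known for hypoxic areas far from vessels. Of the 6 genes of the score, Bnip3 encodes a mitophagy receptor, Ndrg1 a stress-response protein, Egln3 an oxygen-sensing hydroxylase, Ankrd37 an ankyrin-repeat protein, Pdk1 a kinase that keeps pyruvate out of the citric acid cycle, and Vegfa the main angiogenic growth factor.

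The promoters of 3 genes of the score and of 2 further genes that were among the highest in the hypoxic cells, the glucose transporter gene Slc2a1 and the glycolysis gene Pgk1, are shown because they differ in how often they carry the HIF core letters. Each is the 250 bases before a RefSeq gene start on GRCm38.p6, written 5′ to 3′ in the direction of the gene, with ACGTG or GCGTG on either strand in capitals. CACGTG reads ACGTG on both strands and counted as 2 matches, and neighbouring or overlapping matches form 1 run of capitals. The windows lie at chr7:138909507-138909756 on the minus strand for Bnip3, chr8:45999851-46000100 on the minus strand for Ankrd37, chr12:54203875-54204124 on the minus strand for Egln3, chr4:119108495-119108744 on the plus strand for Slc2a1 and chrX:106186850-106187099 on the plus strand for Pgk1.
Bnip3: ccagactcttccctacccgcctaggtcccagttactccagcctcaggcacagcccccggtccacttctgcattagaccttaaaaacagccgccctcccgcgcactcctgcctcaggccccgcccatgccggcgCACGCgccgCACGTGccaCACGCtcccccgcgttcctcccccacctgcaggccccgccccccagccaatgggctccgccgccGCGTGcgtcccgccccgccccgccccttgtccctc
Ankrd37: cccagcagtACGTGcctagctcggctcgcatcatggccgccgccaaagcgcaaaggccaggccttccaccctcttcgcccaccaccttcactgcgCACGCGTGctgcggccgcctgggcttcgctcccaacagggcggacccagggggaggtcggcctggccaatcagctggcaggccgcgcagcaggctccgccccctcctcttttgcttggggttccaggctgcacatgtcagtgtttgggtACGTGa
Egln3: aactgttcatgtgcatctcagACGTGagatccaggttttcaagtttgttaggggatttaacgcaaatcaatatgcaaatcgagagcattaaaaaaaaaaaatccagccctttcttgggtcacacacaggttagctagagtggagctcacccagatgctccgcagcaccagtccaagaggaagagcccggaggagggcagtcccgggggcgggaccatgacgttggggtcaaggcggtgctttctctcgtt
Slc2a1: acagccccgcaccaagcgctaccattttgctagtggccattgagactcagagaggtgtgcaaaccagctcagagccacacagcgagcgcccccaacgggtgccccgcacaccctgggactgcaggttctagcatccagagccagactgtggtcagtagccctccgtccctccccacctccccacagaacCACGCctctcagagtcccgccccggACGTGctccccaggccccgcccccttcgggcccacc
Pgk1: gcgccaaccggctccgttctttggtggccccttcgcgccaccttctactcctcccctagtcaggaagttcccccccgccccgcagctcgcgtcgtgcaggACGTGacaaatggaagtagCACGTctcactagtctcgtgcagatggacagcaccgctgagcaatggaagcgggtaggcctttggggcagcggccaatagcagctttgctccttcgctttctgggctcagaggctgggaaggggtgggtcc

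The Bnip3 window held 5 matches and the Ankrd37 window 4, against 1 for Egln3 and 2 each for Slc2a1 and Pgk1. Among all 32851 RefSeq windows of this length, 38.6% held at least 1 match, 16.7% at least 2 and 2.58% at least 4. Of the 6 genes of the score 5 were in the table, and each had at least 1 window with a match. A gene with several windows counted if any matched, so these counts are not comparable with the shares of single windows. For Vegfa the window just before the annotated gene (chr17:46032378-46032627, minus strand) held 0 matches. Its 2 matches were in the window of another RefSeq start (chr17:46025164-46025413), which lies inside the annotated gene. Of the 15 genes highest in the hypoxic cells, 10 were in the table and 8 had a match in any window. These 15 include Bnip3, Ndrg1, Ankrd37 and Vegfa of the score. A match describes the letters and says nothing of binding.

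The label was checked against its markers. The epithelial keratin Krt8 stood at 1453 CPM (a gene's count per 1000000 UMIs, from UMIs summed over the cells of a set) in shCtrl hypoxic cells and 1774 CPM in shSrsf10 hypoxic cells, against 1507 and 1591 CPM in low-score cells. Krt18, its partner, stood at 2373 and 3044 CPM in hypoxic cells. The hepatocyte lineage genes Alb (1843 and 1776 CPM) and Afp (1237 and 984 CPM), encoding albumin and alpha-fetoprotein, were also abundant in them. The epithelial genes Cdh1 (0.399 and 0.322 CPM) and Cldn7 (listed at 0 in every set) were not detected or almost not detected in hypoxic and low-score cells alike. The keratins were used by the gate and the 6 genes by the score, so their levels are no independent evidence for the name.

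The score was graded, with no gap at the boundary. The lowest member had 0.123194% of its UMIs in the 6 genes and the highest cell outside had 0.123147%. The 10 members just inside had a median of 0.123458% and the 10 cells just outside 0.122679%. In all, 286 cells lay within 10% of the boundary, among them 141 members (13.8%), so the set is a range of the score and not a separate cell type. Member scores ran from 0.123% to 0.631% in shCtrl (median 0.177%) and from 0.123% to 0.536% in shSrsf10 (median 0.176%). The median member carried 29 UMIs of the 6 genes in shCtrl and 47 in shSrsf10, against 2 and 3 in low-score cells. After each cell was thinned to 5000 UMIs, at least 4 of the 6 genes were seen in 52.1% of shCtrl and 46.9% of shSrsf10 members and in 0 of the low-score cells of either library.

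Hypoxic cells made up 10.9% of the kept epithelial cells in shCtrl (704 of 6459, 95% Clopper-Pearson interval 10.1 to 11.7) and 8.45% in shSrsf10 (318 of 3763, 7.58 to 9.39). The share was 2.45 percentage points lower in shSrsf10 (difference -2.45, Newcombe interval -3.60 to -1.26). Depth differed between the libraries, with a median of 18176 UMIs per kept cell in shCtrl and 27525 in shSrsf10. When the score was taken after thinning every cell to 5000 UMIs, the shares were 10.3% and 9.51% and the difference -0.767 points, with an interval from -1.94 to 0.447. Leaving Vegfa out of the score gave a difference of -1.57 points (-2.73 to -0.364). Among cells with few transcripts of mitosis genes the difference was -1.78 points (-3.80 to 0.317). Low-score cells made up 47.0% of the shCtrl and 55.1% of the shSrsf10 cells.

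**Figure D1:**
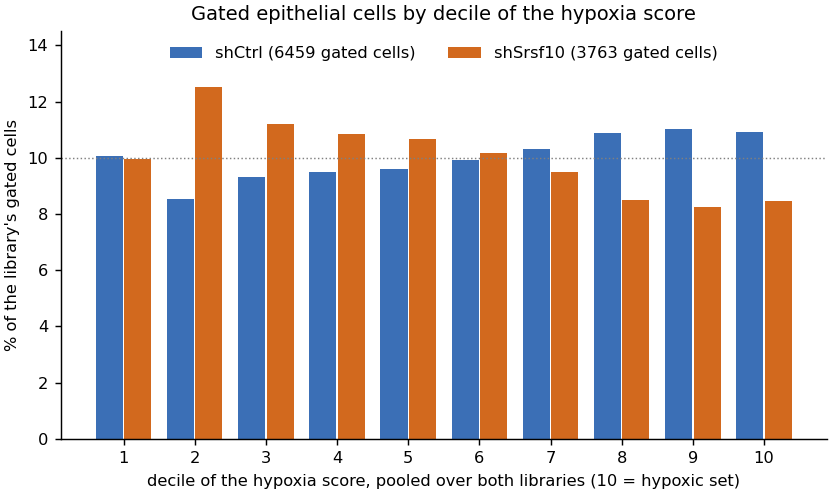
Bars give the percentage of each library's kept epithelial cells (y axis) in each decile of the pooled hypoxia score (x axis, 10 being the hypoxic set), and the dotted line marks an even spread of 10%. Blue bars (shCtrl) are higher than orange bars (shSrsf10) in decile 1, by little, and in deciles 7 to 10, with 10.9% against 8.45% in the top decile.

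The 6 genes of the score chose the cells, so their values are a description. Bnip3 stood at 696 CPM in shCtrl and 892 CPM in shSrsf10 hypoxic cells, against 15 and 17.7 CPM in low-score cells. Ndrg1 stood at 677 and 542 CPM, against 14.6 and 13.4. Together these 2 genes supplied most of the score, Bnip3 36.5% and 47.3% and Ndrg1 35.5% and 28.7% of the members' UMIs of the 6 genes. Vegfa stood at 218 and 128 CPM against 23.6 and 17.4, and Ankrd37 at 155 and 166 CPM against 7.99 and 5.89. Egln3 (124 and 128 CPM against 29.5 and 37.4) and Pdk1 (38.1 and 31.0 CPM against 9.76 and 9.14) had the smallest ratios. In both libraries every gene of the score was higher in the hypoxic set.

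To see each gene in cells it did not choose, it was left out of the score and the top 10% and lowest 50% were taken from the other 5 genes. The log2 ratio of hypoxic to low-score cells for Bnip3 then went from 5.54 to 4.34 in shCtrl and from 5.66 to 4.82 in shSrsf10. For Ndrg1 it went from 5.54 to 4.85 and from 5.34 to 4.71, for Ankrd37 from 4.28 to 3.30 and from 4.81 to 4.1, and for Vegfa from 3.21 to 2.57 and from 2.88 to 2.49. Egln3 (from 2.08 to 1.36 and from 1.78 to 1.31) and Pdk1 (from 1.96 to 1.42 and from 1.76 to 1.45) also kept ratios above 1.3 on the log2 scale. Each of the 6 genes was thus higher in cells that the other 5 had chosen.

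**Figure D2:**
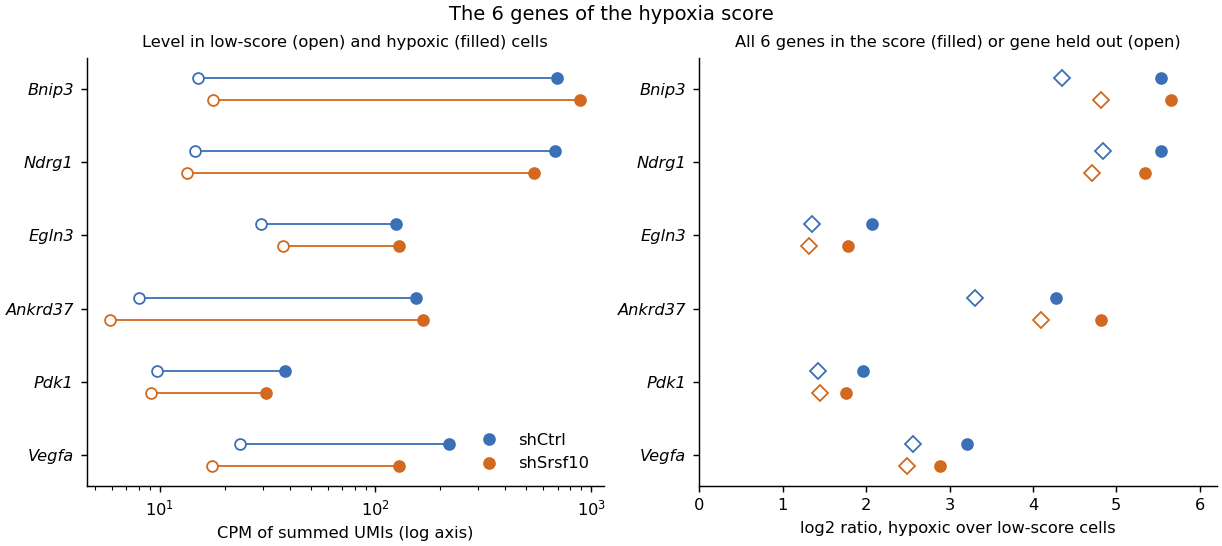
Left, the CPM (log axis) of the 6 genes of the score in low-score cells (open circles) and hypoxic cells (filled circles) of shCtrl (blue) and shSrsf10 (orange). Right, the log2 ratio of hypoxic to low-score cells with all 6 genes in the score (filled circles) and with the plotted gene held out (open diamonds), which stays between 1.31 and 4.85.

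At equal depth most members carried the 2 leading genes. After thinning, a Bnip3 UMI was seen in 94.3% of shCtrl and 96.5% of shSrsf10 hypoxic cells, and in 6.79% and 8.10% of low-score cells. In leukocytes (barcodes with Ptprc and without the keratins), the Bnip3 share was 13.6% (6 of 44) and 5.70% (9 of 158). Ndrg1 was seen in 91.9% and 84.9% of hypoxic cells, 5.80% and 5.88% of low-score cells and 15.9% and 5.70% of leukocytes. The leukocytes had median depths of 6248 and 7180.5 UMIs. The score chose low-score cells for few UMIs of these genes, and leukocytes can express both, so neither share measures background.

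Other properties of the cells moved with the score. Hypoxic cells had fewer UMIs than low-score cells (medians 16147 against 19150 in shCtrl and 25320 against 28574 in shSrsf10) and fewer genes after thinning (1246 against 1485.5 and 1231.5 against 1464). Their median mitochondrial share was higher, 0.392% against 0.182% and 0.229% against 0.0833%, and so was the share from ribosomal protein genes, 50.1% against 41.5% and 48.3% against 41.1%. Cells with 3 or more thinned UMIs of G2 and mitosis genes were 9.38% and 11% of hypoxic cells but 56.5% and 64.3% of low-score cells. Of the hypoxic cells, 82 of 704 in shCtrl and 137 of 318 in shSrsf10 held 3 or more UMIs of markers of other cell types, against 576 of 3036 and 1069 of 2075 low-score cells. None of 5 natural killer cell markers had a UMI in the hypoxic cells, and summed T cell markers reached 2.40 and 9.98 CPM, B cell markers 0.479 and 0.859, macrophage markers 27.9 and 22.6 (against 18.1 and 12.8 in low-score cells), neutrophil markers 16.5 and 12.6 and endothelial markers 18.5 and 17.9. Fibroblast markers summed to 6.71 CPM in shCtrl but 87.6 CPM in shSrsf10 hypoxic cells, mostly Dcn (6.47 and 66.2 CPM), which was as high in shSrsf10 low-score cells (72.7 CPM). One shSrsf10 hypoxic cell held 1224 Hba-a1 UMIs. The libraries shared 67 of their barcodes, and 6 hypoxic cells carried one of these. The part of these properties in the results below was not tested, except that some counts are also given without the cells rich in mitosis transcripts or in other cell types' markers. For the latter counts Dcn and the endothelial gene Egfl7 were not used as markers, which kept 930 hypoxic and 4679 low-score cells. Most of the cells given above with 3 or more UMIs of such markers therefore stayed in.

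Across all genes with at least 50 UMIs over the 2 sets in each library, 705 of 11185 (6.3%) were at least 1.5-fold higher in hypoxic than in low-score cells in both libraries, and 3464 (31%) at least 1.5-fold lower. By library the higher share was 8.5% in shCtrl and 9.43% in shSrsf10, and the lower share 40.1% and 38.3%. The median gene itself had a log2 ratio of -0.40 in shCtrl and -0.36 in shSrsf10. The larger share of ribosomal protein genes, given above, went with this shift. Centred on the median gene, 1645 of the 11185 genes were higher and 1778 lower in both libraries. Levels below are uncentred CPM, and the shift of the median gene applies to every hypoxic to low-score ratio. Since the score chose the cells, these counts describe the set and test nothing. Among cells with under 3 thinned UMIs of mitosis genes, 561 genes were higher, 526 of them among the 705, and 2825 lower, 2552 of them among the 3464.

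Genes known as HIF targets, apart from those in the score, were higher in hypoxic cells. Of 47 such genes with a row of counts, 36 had enough UMIs in both libraries, and 29 of these were at least 1.5-fold higher in both libraries (background 6.3%) and 1 lower (background 31%). Their median log2 ratio was 1.75 in shCtrl and 1.87 in shSrsf10. Ero1l, which helps to form disulfide bonds in the endoplasmic reticulum, stood at 186 and 200 CPM in hypoxic cells against 13.8 and 13.3 in low-score cells (log2 ratios 3.76 and 3.90). P4ha2, a collagen prolyl hydroxylase, stood at 57.2 and 61.2 CPM against 6.61 and 5.60. Bnip3l, the mitophagy receptor related to Bnip3, stood at 202 and 257 CPM against 50.6 and 54.9, and Fam162a at 387 and 500 CPM against 90.1 and 91.7. After thinning, an Ero1l UMI was seen in 51.1% and 57.9% of hypoxic cells against 6.98% and 5.54% of low-score cells. Leukocytes had Ero1l in 22.7% and 9.49%. The 11 without enough UMIs, among them Adm, Car12, Lox, Ndufa4l2 and Pgf, stood at 1.29 CPM or less in every set. Angptl4 was the member lower in both libraries (0.399 and 0.322 CPM against 0.704 and 1.05), and it was no longer 1.5-fold lower in both when ratios were centred on the median gene. Among cells with few mitosis transcripts 27 of 34 HIF targets were higher.

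Glycolysis genes were higher almost throughout. Of 20 genes 18 had enough UMIs, 15 were higher in both libraries (background 6.3%) and 0 lower, with medians of 1.45 and 1.46. The gene lists share members, so their counts are not separate results. Pfkfb3 is also among the other HIF targets, and Cited2 is among both those targets and the HIF sensors and factors. Slc2a1, the glucose transporter, stood at 357 and 364 CPM in hypoxic cells against 45.0 and 50.9 in low-score cells, and a UMI was seen in 76.4% and 73.0% of thinned hypoxic cells against 18.5% and 20.6% of low-score cells and 6.82% and 24.1% of leukocytes. Pgk1, phosphoglycerate kinase, stood at 1220 and 1549 CPM against 171 and 236. Aldoa, aldolase, stood at 2567 and 3505 CPM against 793 and 1060, and Gapdh at 3448 and 4505 CPM against 1258 and 1642. Pfkp, the platelet type phosphofructokinase, stood at 42.4 and 35.4 CPM against 4.79 and 6.38, and Pfkm, the muscle type, at 21.5 and 18.2 against 14.9 and 12.3. Eno1 (120 and 205 CPM against 165 and 240) and Pfkfb3 (3.59 and 2.36 CPM against 6.87 and 2.46) were not higher. Among cells with few mitosis transcripts 14 of 17 glycolysis genes were higher. Reads of Eno1, Gapdh and several other glycolysis genes can be split with processed pseudogenes, so their levels are uncertain.

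Genes of glycogen and lipid storage followed in part. Of 9 glycogen genes with enough UMIs, 5 were higher (background 6.3%) and 1 lower (background 31%). Gys1, glycogen synthase, stood at 52.1 and 41.5 CPM against 5.05 and 4.80, and the phosphoglucomutase gene Pgm1 at 39.1 and 44.8 CPM against 7.90 and 9.44, while Pygb, a glycogen phosphorylase, stood at 14.9 and 13.2 CPM against 53.2 and 40.9. Of 5 lipid droplet genes 3 were higher and 1, Pnpla2, a triglyceride lipase, lower (12.2 and 24.7 CPM against 28.1 and 37.2). The higher ones included Hilpda, an inhibitor of lipolysis (748 and 694 CPM against 345 and 297), and Plin2, a droplet coat protein (334 and 377 CPM against 151 and 180). Of 6 collagen hydroxylase and crosslinker genes 4 were higher and 0 lower.

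Some genes of the oxygen-sensing pathway itself were higher. Of 11 genes of HIF sensors and factors 4 were higher in both libraries (background 6.3%), 0 were lower and 7 did not pass the fold. The higher ones were Egln1, Cited2, Vhl and Hif1a. Egln1, the main HIF prolyl hydroxylase, stood at 73.9 and 59.6 CPM against 21.9 and 16.2, and Cited2, which competes with HIF for its coactivators, at 107 and 48.0 CPM against 23.5 and 12.8. Vhl stood at 22.4 and 20.5 CPM against 10.8 and 9.63, and Hif1a at 34.3 and 26.1 CPM against 18.6 and 14.7. Epas1, encoding HIF-2 alpha, stood at 17.6 and 17.1 CPM against 13.1 and 9.99, and Arnt, the shared partner subunit, at 21.2 and 15.6 CPM against 14.0 and 11.2. Egln2 was the one hydroxylase gene with a negative log2 ratio, -0.79 and -0.54. Centred on the median gene, 7 of the 11 passed the fold upward, as did 1645 of all 11185 genes.

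Secreted vascular factors other than Vegfa were not higher throughout. Of 8 with enough UMIs, 2 were higher (background 6.3%) and 3 lower (background 31%), the lower share being near that of all genes. Centred on the median gene, 2 were higher and 1 lower, against 1645 and 1778 of all 11185 genes. Angpt2, a vessel-destabilising ligand, was among the higher ones, at 24.4 and 28.0 CPM against 7.68 and 9.88. Efna1, an ephrin ligand and one of the 15 highest genes, stood at 129 and 132 CPM against 15.6 and 19. Of 8 genes of acid handling 2 were higher (background 6.3%) and 2 lower (background 31%), the lower share again being near that of all genes. The higher ones were Bsg, the chaperone of lactate transporters (1857 and 2873 CPM against 694 and 852), and Car9, a carbonic anhydrase on the cell surface (6.87 and 5.26 CPM against 1.12 and 1.13). The lactate exporter gene Slc16a3 stood under 1 CPM in every set.

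Further genes among the 15 highest were Hmox1, Prelid2, Ddit3, St3gal1, Rnf128 and Isg20. Hmox1, heme oxygenase, stood at 183 and 255 CPM in hypoxic cells against 22.6 and 17.3 in low-score cells, the log2 ratio being 3.02 (2.92 to 3.11) in shCtrl and 3.88 (3.78 to 3.98) in shSrsf10. Prelid2 stood at 193 and 229 CPM against 37.8 and 46.6, and St3gal1, a sialyltransferase, at 118 and 126 CPM against 24.9 and 19.2. Rnf128, a ubiquitin ligase, stood at 184 and 178 CPM against 40.7 and 39.6, and Isg20, an exonuclease, at 82.3 and 128 CPM against 17.2 and 28.8. These genes were ranked by the same ratios, so their values are a description.

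**Figure D3:**
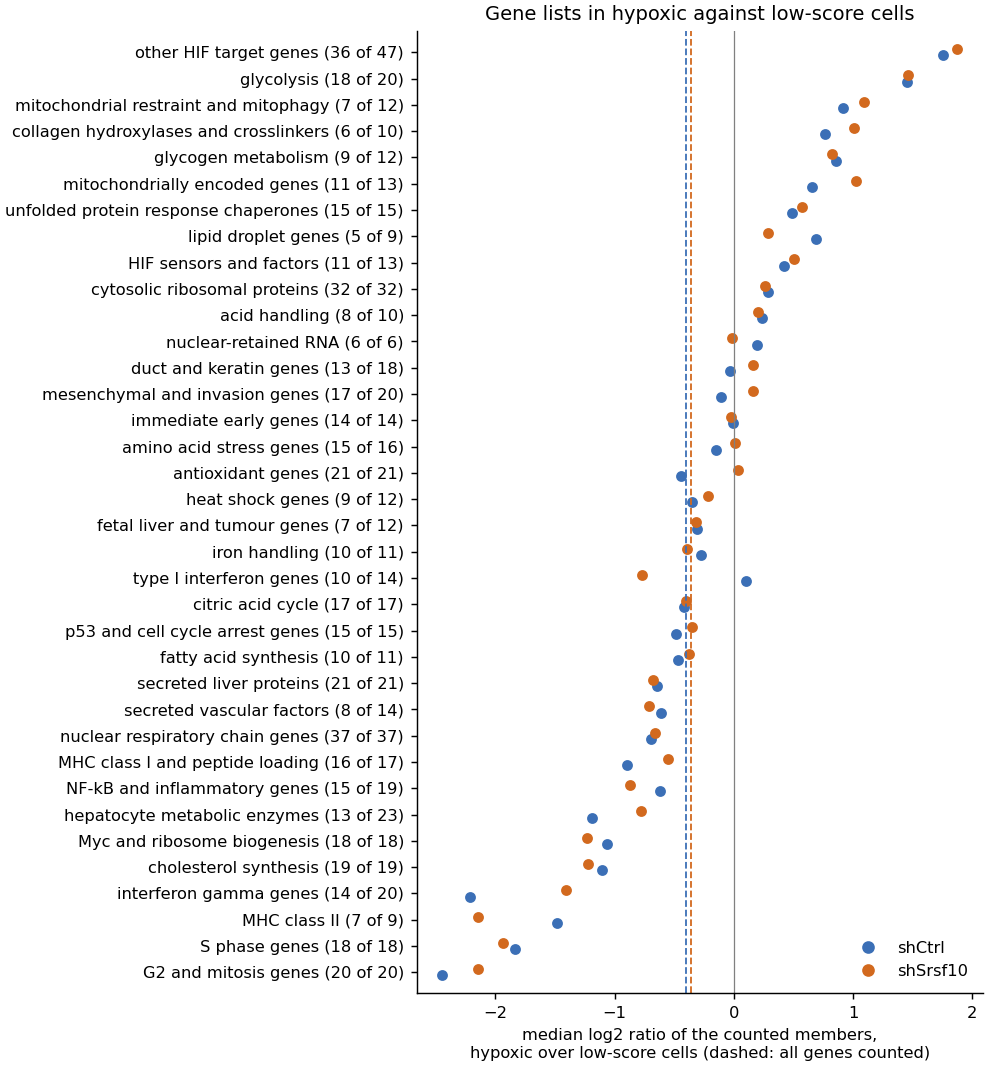
Each point is the median log2 ratio of hypoxic to low-score cells (x axis) over the members of a gene list with enough UMIs, in shCtrl (blue) and shSrsf10 (orange), with counted and listed members in brackets. Dashed lines mark the median of all genes counted, -0.40 and -0.36. Other HIF targets (1.75 and 1.87) and glycolysis (1.45 and 1.46) lie to the right of these lines, and G2 and mitosis genes (-2.45 and -2.15) and S phase genes (-1.83 and -1.94) to the left.

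Mitochondrial genes split by genome. Of 7 genes that restrain or remove mitochondria, 5 were higher in both libraries (background 6.3%) and 0 lower. Among them Higd1a, a respiratory chain assembly factor, stood at 805 and 754 CPM against 190 and 203. Of 37 nuclear genes of the respiratory chain 0 were higher and 21 lower (background 31%), with medians of -0.69 and -0.66. Centred on the median gene 8 were lower, when 1778 of all 11185 genes were. Ndufa4, a cytochrome oxidase subunit, stood at 430 and 475 CPM against 1395 and 1372, and cytochrome c (Cycs) at 199 and 180 CPM against 590 and 459. Of 17 citric acid cycle genes 6 were lower and 0 higher, a share near the 31% of all genes, and 2 were lower when centred. Idh3a, a subunit of isocitrate dehydrogenase, was one of them (20.4 and 20.2 CPM against 63.4 and 73.8). In contrast, 7 of 11 mitochondrially encoded genes were higher in both libraries (background 6.3%) and 0 lower, mt-Co1 standing at 757 and 406 CPM against 312 and 125. Among cells with few mitosis transcripts 4 of 11 were higher. The summed level of the mitochondrially encoded genes was not highest in the hypoxic set. In deciles 8, 9 and 10 it was 5341, 4873 and 4839 CPM in shCtrl and 2575, 3085 and 2759 CPM in shSrsf10.

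Cell cycle genes were lower. All 20 G2 and mitosis genes counted were at least 1.5-fold lower in both libraries (background 31%), with medians of -2.45 and -2.15, and so were 17 of 18 S phase genes, with medians of -1.83 and -1.94. Mki67, the proliferation antigen, stood at 9.66 and 8.05 CPM against 38.2 and 27.5, Cdk1, the mitotic kinase, at 27.3 and 33.7 CPM against 130 and 156, and Birc5, survivin, at 17.5 and 32.1 CPM against 134 and 168. Rrm2, a subunit of ribonucleotide reductase, stood at 3.19 and 5.04 CPM against 37.4 and 44.1. Ccnd1, cyclin D1, stood at 43.2 and 56.6 CPM against 202 and 237. Cdkn1a, the p21 inhibitor of cyclin-dependent kinases, was higher, at 804 and 657 CPM against 241 and 193, and Cdkn1b, p27, at 15.1 and 15.3 CPM against 7.19 and 7.15. Among cells with under 3 thinned UMIs of these mitosis genes, which removes part of the difference by construction, 17 of 17 counted mitosis genes and 16 of 18 S phase genes were still lower.

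Cholesterol synthesis genes and many genes of ribosome biogenesis were lower, while ribosomal protein genes were not. Of 18 genes of Myc and ribosome biogenesis 12 were lower (background 31%) and 0 higher, including Bop1, a ribosome assembly factor (8.54 and 11.2 CPM against 34.8 and 45.1), although Myc itself stood at 99.8 and 105 CPM against 52.5 and 71.7. The summed level of that list was 2486 and 2534 CPM against 2690 and 2837. Of 32 cytosolic ribosomal protein genes 0 passed the fold in either direction, with medians of 0.29 and 0.26. When centred, 18 passed it upward, as did 1645 of all 11185 genes. Of 19 cholesterol synthesis genes 17 were lower (background 31%) and 0 higher, with medians of -1.10 and -1.22. Idi1, the isopentenyl isomerase, stood at 3.91 and 3.22 CPM against 15.1 and 15.8. Centred, 10 of the 19 remained past the fold, when 1778 of all 11185 genes were lower. Among cells with few mitosis transcripts 16 did. Of 10 fatty acid synthesis genes 4 were lower and 1 higher, shares near those of all genes, the higher one being Me1, the malic enzyme (91.0 and 87.5 CPM against 27.2 and 25.2).

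Stress responses were mixed. Of 15 chaperones of the unfolded protein response 6 were higher and 0 lower, such as Herpud1, a degradation factor of the endoplasmic reticulum (129 and 112 CPM against 44.0 and 33.6), and Hspa5, the main chaperone there (781 and 590 CPM against 387 and 303). Of 15 amino acid stress genes 5 were higher (background 6.3%) and 4 lower (background 31%), the lower share being near that of all genes. Ddit3, encoding CHOP, stood at 221 and 209 CPM against 38.8 and 42.7. Shmt2, a mitochondrial serine enzyme, stood at 12.5 and 22 CPM against 60.4 and 76.0. Of 21 antioxidant genes 5 were higher and 6 lower, the lower share again being near that of all genes. Immediate early genes, which cell dissociation is known to induce, had medians of -0.01 and -0.02, with 1 of 14 higher (Dusp1) and 2 lower. Their higher share was near the 6.3% of all genes.

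Hepatocyte genes went both ways. Of 13 hepatocyte metabolic enzymes with enough UMIs 8 were lower (background 31%) and 1 higher (background 6.3%). Of 21 secreted liver proteins 8 were lower and 1 higher, shares near those of all genes. Their summed level was lower in hypoxic cells of shCtrl (14551 against 19625 CPM) but higher in those of shSrsf10 (13009 against 11498 CPM). Rbp4, the retinol carrier, was the higher one, at 3860 and 4352 CPM against 2381 and 1850. Ttr, transthyretin, stood at 1035 and 309 CPM against 2922 and 825. Apoc2, an apolipoprotein that activates lipoprotein lipase, stood at 104 and 114 CPM against 597 and 485. Among 13 duct and keratin genes 2 were higher, Spp1, osteopontin (71.1 and 51.0 CPM against 15.8 and 9.64), and Krt19, a duct keratin (576 and 826 CPM against 288 and 288), and 2 were lower.

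MHC class II and interferon gamma genes were lower in hypoxic cells within each library. All 7 MHC class II genes with enough UMIs were lower in both libraries (background 31%), with medians of -1.49 and -2.14. Cd74, the invariant chain, stood at 30.7 CPM in shCtrl and 263 CPM in shSrsf10 hypoxic cells, against 116 and 994 CPM in low-score cells. At equal depth a Cd74 UMI was seen in 7.81% and 37.1% of hypoxic cells against 17.7% and 72.8% of low-score cells. Leukocytes, which express Cd74 themselves, had it in 45.5% and 31% of cells, so they give no background for this gene. Of 14 interferon gamma genes 10 were lower (background 31%) and 0 higher. Of 16 MHC class I and peptide loading genes 7 were lower and 0 higher, a share nearer to that of all genes, with medians of -0.90 and -0.55. H2-D1 stood at 179 and 662 CPM against 349 and 890. Among cells with few mitosis transcripts 6 of 7 MHC class II genes were lower. The same held for 6 of 7 in cells with under 3 UMIs of other cell types' markers, Dcn and Egfl7 not counted.

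**Figure D4:**
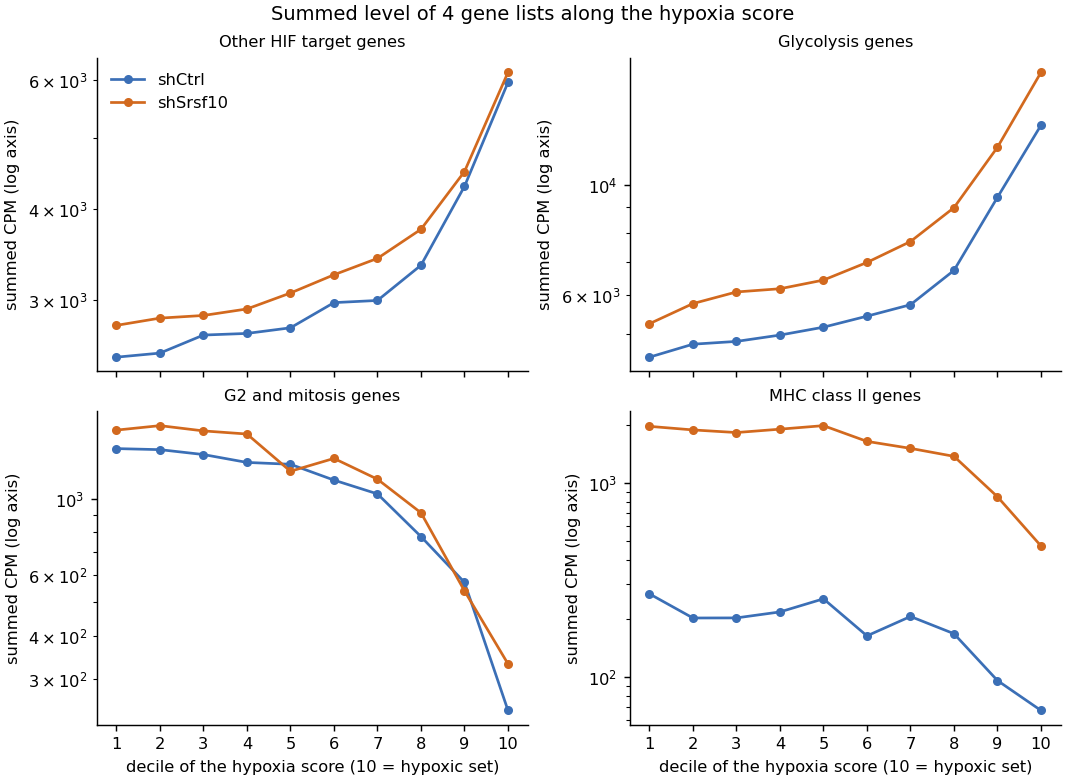
Summed CPM (log axis) of 4 gene lists in each decile of the hypoxia score (x axis, 10 being the hypoxic set) for shCtrl (blue) and shSrsf10 (orange). Other HIF targets and glycolysis genes are highest and G2 and mitosis and MHC class II genes lowest in decile 10 of both libraries.

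The pattern was graded along the score. Summed glycolysis genes stood at 4493 CPM in the lowest decile of shCtrl, 6720 in decile 8, 9434 in decile 9 and 13180 in decile 10, and at 5247, 8991, 11900 and 16843 CPM in shSrsf10. Summed G2 and mitosis genes stood at 1403, 778, 572 and 242 CPM in the same deciles of shCtrl and at 1588, 912, 540 and 331 CPM in shSrsf10. Most of the difference lay in the upper 3 deciles. MHC class II genes went from 1962 CPM in the lowest decile of shSrsf10 to 474 in the highest, and from 268 to 67.1 CPM in shCtrl. Slc2a1 alone stood at 78.7 and 85.7 CPM in decile 8 and 147 and 160 CPM in decile 9.

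The libraries were then compared within the hypoxic cells. Srsf10, the hairpin's target, encoded on the plus strand at chr4:135855747-135869908 (GRCm38), stood at 26.3 CPM in shCtrl and 9.87 CPM in shSrsf10 hypoxic cells (329 and 92 UMIs, log2 ratio -1.41, interval -1.76 to -1.07). In low-score cells it stood at 52.2 and 21.5 CPM (log2 ratio -1.28, -1.37 to -1.19). It was therefore lower in the shSrsf10 library in both sets, and lower in hypoxic than in low-score cells of both libraries (log2 ratios -0.99 and -1.12). Of 9108 genes with enough UMIs, 611 (6.71%) were at least 1.5-fold higher in shSrsf10 hypoxic cells and 1262 (13.9%) lower. In low-score cells the shares were 6.77% and 12.1%. Fewer members in shSrsf10 and the single library per group limit these values, and what sets the libraries apart beyond the hairpin cannot be told apart from it.

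Most hypoxia genes did not differ 1.5-fold between the libraries, but neither did most of all genes (6.71% higher and 13.9% lower). The summed level of the genes of the score was fixed in part by the common boundary. Of the 6 genes of the score 0 were at least 1.5-fold higher and 1 lower, Vegfa, with a log2 ratio of -0.77 (-0.87 to -0.67) in hypoxic and -0.44 (-0.55 to -0.33) in low-score cells. Of 35 other HIF targets 1 was higher (background 6.71%) and 7 lower (background 13.9%), with a median of -0.21 in hypoxic and -0.07 in low-score cells. Cited2 had the lowest value, -1.16, and Selenbp1, a selenium-binding protein, the highest, 0.86. Of 18 glycolysis genes 1 was higher, Eno1 (0.77), and 2 lower, Hk2, a hexokinase (-0.90), and Pfkfb3 (-0.61).

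Antigen presentation genes were higher in the shSrsf10 library in hypoxic and low-score cells alike. Each of the 6 MHC class II genes counted in hypoxic cells passed the fold upward (background 6.71%), and their median was 2.76, against 3.02 for the same genes in low-score cells. Of 15 MHC class I and peptide loading genes 13 were higher, with a median of 1.52 against 1.35, and of 9 interferon gamma genes 8, with a median of 2.37 against 2.24. Cd74 had a log2 ratio of 3.09 (2.94 to 3.25) in hypoxic and 3.09 (3.06 to 3.13) in low-score cells. Ly6a, a surface protein that interferon induces, stood at 20.5 CPM in shCtrl and 232 CPM in shSrsf10 hypoxic cells, the highest ratio among the 10 highest genes (log2 3.50). Cxcl10, a T cell attractant, stood at 60.0 and 55.5 CPM in hypoxic cells but 83.3 and 454 CPM in low-score cells. Other genes among the 10 highest included Psmb8, an immunoproteasome subunit (43.7 and 151 CPM), B2m (340 and 903 CPM), the proteoglycan core Srgn (40.5 and 160 CPM), the trefoil peptide Tff2 (227 and 623 CPM) and the lymphotoxin subunit Ltb (259 and 613 CPM). The 9 T cell markers also summed higher in shSrsf10 than in shCtrl hypoxic cells (9.98 against 2.40 CPM), and Cd4 was at 0 in the shCtrl ones. In cells with under 3 UMIs of other cell types' markers (Dcn and Egfl7 not counted) the 6 MHC class II genes were still higher, with a median of 3.71.

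Many secreted liver protein genes were lower in shSrsf10 hypoxic cells, though not their sum to the same degree. Of 20 counted 11 were lower (background 13.9%) and 1 higher, Hp, haptoglobin, and the median was -1.34 against -0.38 for the same genes in low-score cells. The summed level went the other way, the libraries being closer in hypoxic cells (14551 CPM in shCtrl and 13009 in shSrsf10) than in low-score cells (19625 and 11498 CPM). Ttr stood at 1035 CPM in shCtrl and 309 CPM in shSrsf10 hypoxic cells (log2 ratio -1.74, and -1.82 in low-score cells), and Ambp, the alpha-1-microglobulin precursor, at 213 and 62.6 CPM (-1.77 and -1.46). Apoa1, the main apolipoprotein of high-density lipoprotein, had -1.71 in hypoxic but -0.16 in low-score cells, at 64.8 and 19.9 CPM against 132 and 118. Apoa1 UMIs were concentrated, 29.2% of those in shCtrl and 43.2% of those in shSrsf10 hypoxic cells lying in 3 cells. For Serpina1a, Serpina1b and Serpina1c, near-identical antitrypsin genes between which reads can be split, 82.1% to 86.9% of the shCtrl hypoxic UMIs lay in 3 cells each. Without the 3 richest cells of each set Serpina1b stood at 14.7 and 6.30 CPM rather than 81.8 and 14.1, so the list median rests in part on few cells.

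Angptl8 and Peak1 were among the 10 lowest genes in shSrsf10 hypoxic cells and had smaller ratios in low-score cells. Angptl8, a secreted regulator of lipoprotein lipase, stood at 214 CPM in shCtrl and 65.8 CPM in shSrsf10 hypoxic cells (log2 ratio -1.70, -1.83 to -1.58), against 20.7 and 18.0 CPM in low-score cells (-0.20, -0.32 to -0.09). An Angptl8 UMI was seen in 31.1% and 17.9% of thinned hypoxic cells, 7.87% and 7.37% of low-score cells and in 0 of 44 and 0 of 158 leukocytes (upper exact limits 8.04% and 2.31%). The 3 richest cells held 14.0% and 27.4% of the UMIs, and without them Angptl8 stood at 186 and 48.8 CPM. Peak1, a cytoskeletal pseudokinase, stood at 828 and 238 CPM in hypoxic cells (-1.80, -1.86 to -1.73) and at 197 and 97.5 CPM in low-score cells (-1.02, -1.06 to -0.97). Bri3, Spp2, Scand1, Rbpms, Rab5if and Eif3f, the remaining genes of the 10 lowest beside Ttr and Ambp, had log2 ratios from -2.25 to -1.26 in hypoxic and from -2.21 to -1.31 in low-score cells.

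**Figure D5:**
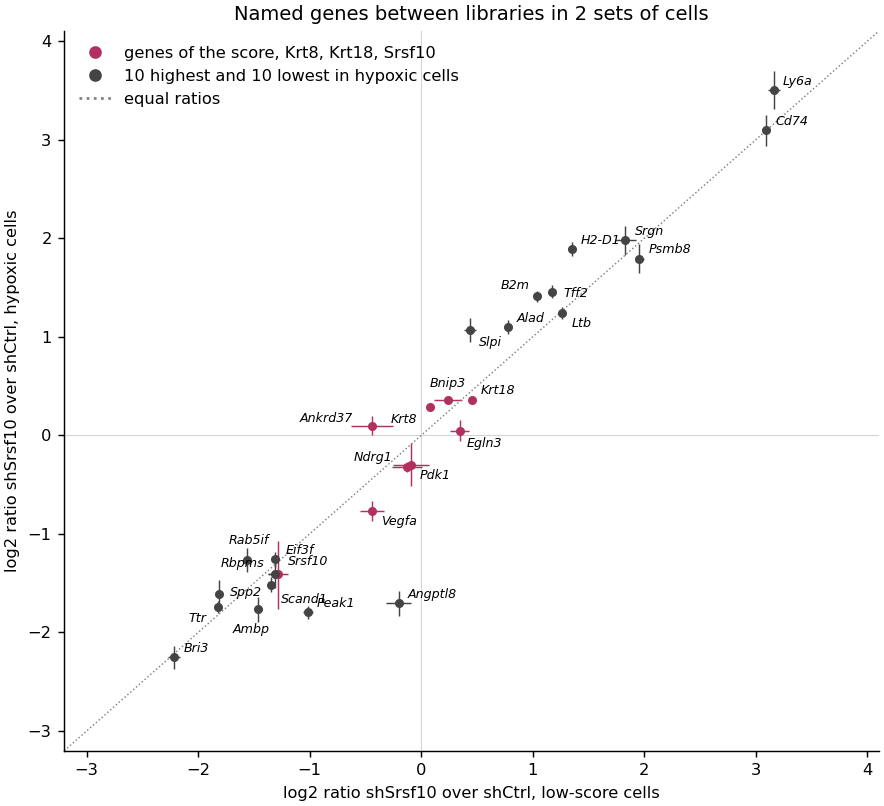
Log2 ratio of shSrsf10 to shCtrl in hypoxic cells (y axis) against the same ratio in low-score cells (x axis), with 95% counting intervals, for the genes of the score with Krt8, Krt18 and Srsf10 (red) and the 10 highest and 10 lowest genes in hypoxic cells (grey). Most points lie near the dotted line of equal ratios, and Angptl8 (-1.70 against -0.20) and Peak1 (-1.80 against -1.02) lie below it.

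All 11 mitochondrially encoded genes counted in hypoxic cells were at least 1.5-fold lower in the shSrsf10 library (background 13.9%). Their median was -0.90, against -1.11 in low-score cells. The nuclear respiratory chain genes had medians of 0.11 and 0.08 in the same comparison. The share of G2 and mitosis positive cells among hypoxic cells was 9.38% (7.32 to 11.8) in shCtrl and 11% (7.79 to 15) in shSrsf10, intervals that overlap.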

How the data were processed

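Single-cell RNA libraries of mouse tumours, 1 titled shCtrl and 1 titled shSrsf10, were deposited by the authors as matrices of whole-number UMI counts for 32285 features, made with Cell Ranger 6.1.0 on mm10 per the submitters' processing notes. The lowest barcode held 500 UMIs. The labels conflict: the series text describes a 5′ kit and a sort with no gate named, the sample protocol a 3′ kit and liver cells separated at low speed, and this could not be settled. Totals were 143327661 UMIs over 9920 barcodes (shCtrl) and 136419902 over 7553 (shSrsf10).

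UMIs were summed over the cells of a set and library and scaled to CPM. Log2 ratios carry exact conditional binomial 95% intervals, shares Clopper-Pearson intervals and differences of shares Newcombe intervals. Intervals treat UMIs or cells as independent and leave out variation between mice. A gene was counted with at least 50 UMIs over the 2 sets compared, and called at 1.5-fold. For shares of cells with a UMI, each cell was first thinned to 5000 UMIs, and no kept cell was shallower. Symbols with several IDs kept 1 copy, and 40 were set aside. No doublets were removed for the reported values, and removal of the highest Scrublet scores (scanpy 1.11.5, 787 and 456 barcodes) was an alternative. The ratio and interval calculation was tested on simulated data. Gene positions are from GENCODE on GRCm38, promoters from RefSeq on GRCm38.p6. Python 3.11.15, numpy 2.4.6, scipy 1.17.1, pandas 2.3.3 and matplotlib 3.10.9 were used.

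The members and the 46 gene lists were chosen with earlier results of these data known. The lists overlap, so some genes were counted in several of them. Named genes were those of the score, Krt8, Krt18, Srsf10, the 15 highest and 15 lowest genes against low-score cells by the smaller of both libraries' ratios, the 10 highest and 10 lowest between libraries in hypoxic cells (each with at least 100 CPM in a set), all HIF sensors, any glycolysis gene and 2 to 4 members of each list with the largest ratios. Mitochondrial, ribosomal, haemoglobin, receptor segment and unnamed genes, Y-linked genes, Xist and Tsix were left out of the ranking. Further genes named in the text were chosen after their values were seen. Alternatives changed the gate, the doublet step, the genes, depth, weights and boundary of the score, the reference cells, the scaling, the summary over cells and the minimum count. Leaving out cells with other cell types' markers or with mitosis transcripts was added after seeing the data. Some results are not reported here.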

Additional observations from a re-analysis of the deposited data

Results flagged for a closer look

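Some values went opposite ways in the libraries when hypoxic were compared with low-score cells, and none of these differences was tested. The median log2 ratio of type I interferon genes was 0.10 in shCtrl and -0.77 in shSrsf10, a difference of -0.867. Within that list Isg15, a ubiquitin-like protein that interferon induces, stood at 35.9 CPM in hypoxic and 16.9 CPM in low-score cells of shCtrl, but 13.0 and 30.9 CPM in shSrsf10, so its log2 ratio differed by -2.34. Without the 3 richest cells of each set the Isg15 values were 28.7 and 15 CPM, and 8.79 and 29.3 CPM.

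The median of the macrophage markers differed by -1.44 (0.02 and -1.42). The complement genes C1qa, C1qb and C1qc stood at 2.79, 2.79 and 2.87 CPM in shCtrl hypoxic cells and at 0.429, 0.751 and 0.107 CPM in shSrsf10 hypoxic cells. These levels are low, and 1 shCtrl hypoxic cell held 29 UMIs of the macrophage markers. The summed markers did not go opposite ways. They were higher in hypoxic cells of shCtrl (27.9 against 18.1 CPM) and of shSrsf10 (22.6 against 12.8 CPM).

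Other such genes rested on few cells. Gsta2, a glutathione transferase, differed by 3.41 and was seen in 6 shCtrl and 11 shSrsf10 hypoxic cells. Apoc3, an apolipoprotein, differed by -4.43 and was seen in 21 and 3 hypoxic cells. The antitrypsin genes Serpina1b and Serpina1c, between which reads can be split, differed by -3.22 and -4.60, and 82.1% of the shCtrl hypoxic UMIs of each lay in 3 cells. Hba-a1, a haemoglobin gene, differed by 8.95, and 1 shSrsf10 hypoxic cell held 1224 of its UMIs.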

How the results depend on the processing

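The share of hypoxic cells was lower in shSrsf10 under every alternative that gave a value, but its difference of -2.45 points moved to -0.767 with the score taken after thinning to 5000 UMIs, where its interval included 0, and to -5.23 with the top 20% of cells taken, which is a larger share by construction. Boundaries taken within each library fix the share and gave no value. Centred on the median gene, 1645 genes in place of 705 were higher and 1778 in place of 3464 lower in hypoxic cells of both libraries. With at least 10 UMIs per gene in place of 50, which tests more genes, 1311 in place of 611 genes were higher in shSrsf10 hypoxic cells. The other 68 values of these comparisons under alternatives stayed within the spread set for them, and no value reversed. Leaving out cells with other cell types' markers gave 664 higher and 3350 lower genes. No paired analysis was possible because each group is 1 library, and leaving out a replicate was not possible for the same reason. The 318 members in shSrsf10 and their 9316630 UMIs limit what can be seen of genes of low level there.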

Other observations

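Inflammatory genes of the NF-kB pathway went both ways in hypoxic cells. Of 15 counted, 7 were at least 1.5-fold lower than in low-score cells in both libraries (31% of all genes were) and 2 higher (6.3% of all genes). Their summed level was 620 CPM in hypoxic and 570 CPM in low-score cells of shCtrl, and 665 and 753 CPM in shSrsf10. Cxcl1, which attracts neutrophils, stood at 25.8 CPM in shCtrl and 31.9 CPM in shSrsf10 hypoxic cells against 69.2 and 75.3 in low-score cells, and Icam1, an adhesion molecule for leukocytes, at 4.63 and 10.2 CPM against 15.9 and 36.6. Lcn2, a secreted iron-binding protein, was higher, at 268 and 236 CPM against 141 and 95.4.

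Genes of iron handling were mixed, with 2 of 10 higher (6.3% of all genes were) and 2 lower (31% of all genes). Slc40a1, the iron exporter ferroportin, stood at 12.7 and 11.5 CPM against 6.60 and 5.48, and Ncoa4, which delivers ferritin for degradation, at 17.9 and 13.4 CPM against 8.29 and 7.06. The importer gene Slc11a2 stood at 5.59 and 4.72 CPM against 10.5 and 12.5.

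Among 15 genes of p53 and cell cycle arrest 3 were higher (6.3% of all genes were) and 4 lower (31% of all genes), the lower share being near that of all genes. Cdkn1a, described above, was among the higher ones, but Phlda3, a p53 target that restrains Akt, stood at 78.6 and 87.3 CPM against 183 and 182, and Mdm2, the ubiquitin ligase of p53, at 27.5 and 21.4 CPM against 38.5 and 29.4.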
